A study of Mus musculus with 2 samples.

Results

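Some macrophages of the mouse aortic and mitral valves carried transcripts of dividing cells, and these barcodes are described here. A barcode counted as a dividing macrophage when 3 conditions held. Col1a1, Col1a2, Col3a1 and Dcn, the matrix genes of valve interstitial cells, made up under 1% of its unique molecular identifiers (UMIs, each standing for 1 captured RNA molecule). It had at least 3 UMIs of C1qa, C1qb, C1qc and Csf1r, 3 complement chains and the receptor for macrophage colony stimulating factor. It had at least 2 UMIs of 7 cycle genes, Top2a, Mki67, Cenpf, Cenpe, Prc1, Tpx2 and Birc5. There were 55 such barcodes, 5 at postnatal day 7 (P7) and 50 at postnatal day 30 (P30), out of 273 macrophage barcodes (47 and 226) and 4473 barcodes in all (961 and 3512). The 193 macrophage barcodes with 0 UMIs of the 7 cycle genes (36 and 157) served as the comparison, called 0-UMI macrophages below, and 25 with 1 UMI (6 and 19) stood between.

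The study measured single cells of heart valves from C57BL/6J mice by Drop-seq, in which each cell is caught in a droplet with a barcoded bead and the 3′ ends of its RNAs are counted. There was 1 library per age, no treatment or transgene is named, and neither the sex nor the number of animals pooled is given. Age, library and run cannot be told apart, and with 1 library per age there is no replicate check, so no test or p-value is given. Intervals are 95% intervals that cover counting error only, not the spread between cells or animals.

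Tissue macrophages come from embryonic precursors and from blood monocytes, and in many organs they maintain their number by dividing in place under signals through Csf1r. A cell that enters S phase makes nucleotides, loads the replication fork and packs new DNA with freshly made histones. It then builds condensins, kinetochores and spindle motors in G2 and mitosis. Genes of the first phase are known targets of E2F factors, and genes of the later phase are often driven through CCAAT boxes and through the TTTGAA element on which the MuvB complexes sit.

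The promoters of genes of both phases can be read for these letters. Genes of the G2/M and the S phase programme whose promoters hold these letters were chosen for display. Shown are the 150 bases before the transcription start of 3 cycle genes of the rule, the cyclin Ccnb2 and the replicative helicase subunit Mcm6. They come from RefSeq on GRCm38.p6, the minus strand of chr11:99024190-99024339 (Top2a), chr7:135716380-135716529 (Mki67), chr1:189688087-189688236 (Cenpf), chr9:70421555-70421704 (Ccnb2) and chr1:128359706-128359855 (Mcm6). No annotated exon of GENCODE M21 lies in these windows. Capitals mark CCAAT boxes, the TTTGAA element and E2F-type letters on either strand.
Top2a: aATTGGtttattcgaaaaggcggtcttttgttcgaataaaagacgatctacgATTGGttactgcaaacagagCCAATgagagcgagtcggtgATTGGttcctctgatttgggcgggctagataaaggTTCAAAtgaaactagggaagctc
Mki67: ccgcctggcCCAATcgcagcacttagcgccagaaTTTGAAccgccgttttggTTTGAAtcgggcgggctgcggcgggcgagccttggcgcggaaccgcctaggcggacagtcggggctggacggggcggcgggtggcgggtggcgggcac
Cenpf: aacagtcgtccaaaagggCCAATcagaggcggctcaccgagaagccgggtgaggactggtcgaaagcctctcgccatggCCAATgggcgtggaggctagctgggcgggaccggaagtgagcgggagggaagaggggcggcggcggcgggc
Ccnb2: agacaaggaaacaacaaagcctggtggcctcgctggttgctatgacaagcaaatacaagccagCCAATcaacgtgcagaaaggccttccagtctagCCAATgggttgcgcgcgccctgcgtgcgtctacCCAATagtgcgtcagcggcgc
Mcm6: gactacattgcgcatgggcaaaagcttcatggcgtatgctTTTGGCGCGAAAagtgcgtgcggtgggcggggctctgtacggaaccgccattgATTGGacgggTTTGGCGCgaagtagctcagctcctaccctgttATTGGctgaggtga

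In Top2a, CCAAT stood 4 times over both strands, upstream of a TTTGAA on the opposite strand whose first base lay 23 bases before the start. Ccnb2 had CCAAT at 21, 54 and 87 bases before the start. Mcm6 held the E2F-type letters 3 times, 2 of them overlapping, and CCAAT on the opposite strand 2 times. Over windows of 250 bases before to 50 after the start, 67.0% of 97 matched genes of the G2/M lists held CCAAT on either strand, 54.6% held TTTGAA and 43.3% held both. The shares over all 27025 genes of the RefSeq table were 41.1%, 20.2% and 7.97%. The E2F-type letters, which were TTTGGCGC, with TTTCCCGC, or TTTGGCGG, or also TTTCGCGC on either strand, stood in 51.6% of 31 replication fork genes, 12.4% of the G2/M genes and 2.70% of all. Over the 4213 matched genes measured at P30, CCAAT stood in 42.3%, TTTGAA in 14.6%, both in 5.91% and the E2F-type letters in 5.98%. Macrophage core genes (26 matched) held CCAAT in 42.3%, TTTGAA in 19.2% and E2F-type letters in 3.85%. Letter matches describe the sequence and show no bound factor. The same windows of 150 bases before Birc5, a rule gene, and before Ndc80 and Nusap1 held none of the letters, and the promoters shown were chosen for holding them. None of the 42 core histone genes of the list had an entry in the promoter table.

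The barcodes were chosen by the measured UMIs of the 3 gene sets, so the values of these genes are a description. At P30, Top2a, the topoisomerase that untangles replicated DNA, gave 323 UMIs and was seen in 40 of 50 dividing barcodes, with 0 to 24 UMIs per barcode and a median of 4.5. Mki67, the proliferation antigen that coats mitotic chromosomes, gave 233 UMIs, also in 40. The kinetochore motor Cenpe gave 160 UMIs in 33 barcodes, and the kinetochore protein Cenpf 92 in 28. The passenger protein Birc5 gave 74 UMIs in 29 barcodes, the midzone protein Prc1 60 in 20 and the spindle assembly factor Tpx2 57 in 24. The 7 genes summed to between 2 and 71 UMIs per P30 barcode, with a median of 12.5. At P7 the 5 barcodes had 15, 10, 4, 3 and 3 UMIs, and Top2a was seen in 3 of them.

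The macrophage genes of the rule were also used to choose the barcodes. Summed macrophage UMIs ran from 4 to 80 at P30 (median 27) and from 9 to 19 at P7. C1qa, a chain of the complement component that binds dying cells, was detected in 48 of the 50 P30 barcodes, with a mean of 7.5 UMIs per barcode against 5.15 in 0-UMI macrophages. In matrix-rich barcodes at P30, which should lack it, C1qa was found in 1.23% at a mean of 0.0513 UMIs. Matrix genes were at most 0.714% of the UMIs of any dividing barcode. At the edge of the cycle threshold, 7 P30 barcodes with 2 cycle UMIs had a median of 27.0 G2/M UMIs per 10000, and 19 barcodes with 1 UMI had 19.4.

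Dividing barcodes were deeper than the others, which the rule itself favours because it asks for at least 2 cycle UMIs. Their total UMIs ran from 1154 to 9146 at P30 (median 3451) against a median of 2035 in 0-UMI macrophages, and from 2547 to 3595 at P7 (median 2611) against 2083. P30 macrophage barcodes with 1 cycle UMI had a median of 3048 UMIs. Dividing barcodes had a median of 1597 detected genes at P30 against 1030 in 0-UMI macrophages. The libraries held 3116184 UMIs at P7 and 11267724 at P30, with medians of 2215 and 2440.5 per barcode. No barcode sequence was shared by the libraries, and none of the dividing barcodes exceeded 20000 UMIs or 20% mitochondrial UMIs. No doublet caller was run, and 1 and 5 dividing barcodes had an undetermined base.

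Dividing macrophages were 22.1% of macrophage barcodes at P30 (50 of 226, exact interval 16.9 to 28.1) and 10.6% at P7 (5 of 47, 3.55 to 23.1). Expected after thinning every barcode to 500 UMIs, the shares were 12.5% and 3.27%. Among matrix-rich barcodes, the valve interstitial cells by their genes, at least 2 cycle UMIs were found in 2.57% at P30 (73 of 2846, 2.02 to 3.21; thinned 1.07%) and 9.56% at P7 (69 of 722, 7.51 to 11.9; thinned 4.68%). At P30 the macrophage share was above the matrix-rich share beyond counting error, at like median depth (2277 and 2546.5 UMIs). At P7 the intervals of the macrophage and matrix-rich shares overlapped. In the remaining barcodes, with under 1% matrix UMIs and under 3 macrophage UMIs, the share was 15.5% at P30 (68 of 440, 12.2 to 19.2; thinned 6.26%) and 22.9% at P7 (44 of 192, 17.2 to 29.5; thinned 12.4%). Their interval overlapped that of macrophages at both ages. Neither the difference between the ages nor that between cell classes could be tested over libraries.

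Genes of the cycle outside the rule graded with it. For this, 97 S phase genes and 117 G2/M genes were summed, leaving out the 7 rule genes and tubulins. At P30 the G2/M sum over pooled barcodes was 18.4 per 10000 UMIs at 0 rule UMIs, 21.2 at 1 UMI, 28.4 at 2 UMIs and 42.4 at 3 or 4 UMIs. It was 107 at 5 to 9 UMIs, 116 at 10 to 19 and 174 at 20 or more. The S phase sum was 16, 18.8, 34.7, 44.2, 90.7, 78.1 and 84.6 in the same order. The S phase sum was thus near its highest level from 5 rule UMIs on, while the G2/M sum was highest in the last bin. Rule and summed genes come from the same cells, so this is a description.

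**Figure D1:**
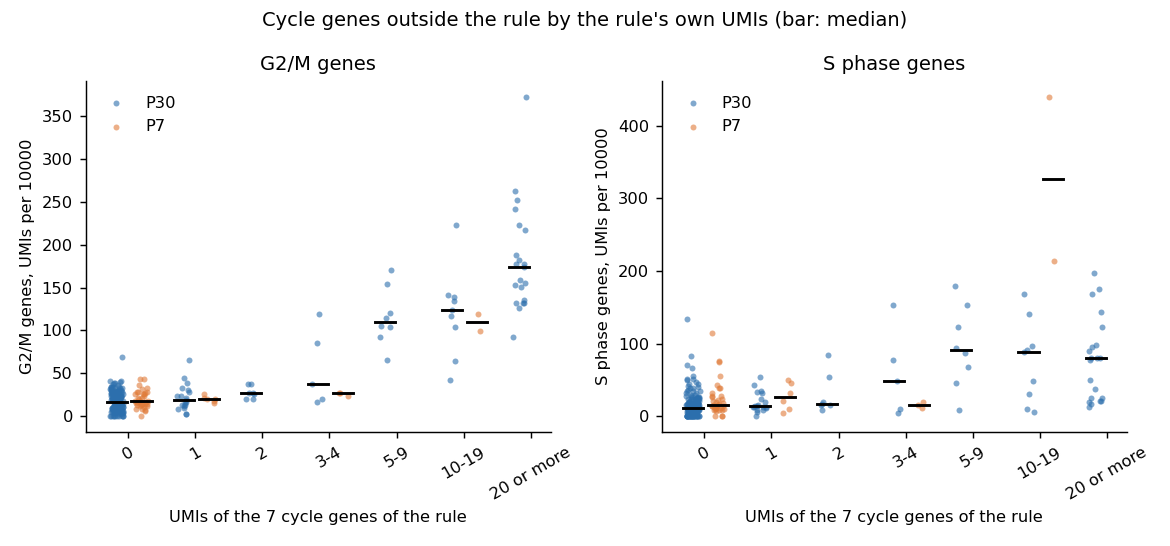
UMIs of G2/M genes (left) and S phase genes (right) per 10000 UMIs in each macrophage barcode, against the number of UMIs of the 7 rule genes; each point is 1 barcode, blue for P30 and orange for P7, and bars are medians. At P30 the G2/M median is 16.8 at 0 rule UMIs and 174 at 20 or more, and the S phase median is 11.3 and 79.6.

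Most dividing macrophages at P30 carried more G2/M than S phase transcripts. The 7 rule genes act in G2 and mitosis, so the choice of barcodes favours this excess, and the counts are a description. G2/M UMIs outnumbered S phase UMIs in 38 of 50 barcodes (76.0%, exact interval 61.8 to 86.9) and in 85 of 157 0-UMI macrophages (54.1%, 46.0 to 62.1), where both sums were low. S phase UMIs outnumbered G2/M UMIs in 12 dividing barcodes. In 37 of the 50 the G2/M sum lay above the highest 0-UMI macrophage (68.9 per 10000), and in 9 the S phase sum lay above the highest 0-UMI value (134). The other 13 barcodes lay within the range of 0-UMI macrophages in both sums. G2/M UMIs were at least 3 times S phase UMIs in 14 dividing barcodes, and the reverse was found in none. Among 0-UMI macrophages the same was found in 49 of 157 and the reverse in 21.

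The 5 barcodes at P7 were of 2 kinds. Their S phase sums were 439, 213, 15.4, 11.5 and 19.6 per 10000, and their G2/M sums 120, 99.8, 26.9, 23.0 and 27.5. The first and second barcodes exceeded every 0-UMI macrophage in both sums and had more S than G2/M UMIs. The other 3, with 3 or 4 rule UMIs, lay within the 0-UMI range in both. Core histones gave 126, 24, 2, 1 and 0 UMIs in the same order, so the P7 histone values below rest on the first and second barcodes. The third barcode also held 992 haemoglobin UMIs among its 2599, against 3 to 22 in the others. The counts over all genes and the list medians that rest on P7 dividing barcodes are given with and without it. The overlap of called genes between the ages is given only with it.

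**Figure D2:**
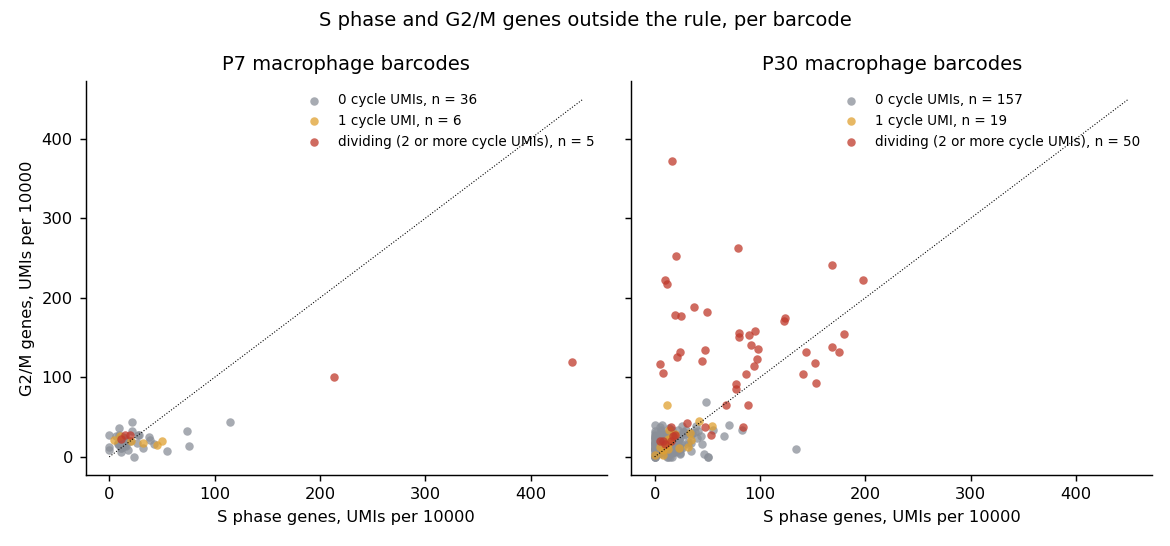
S phase (horizontal) against G2/M genes (vertical), in UMIs per 10000, for each macrophage barcode at P7 (left) and P30 (right); grey, orange and red points have 0, 1 and 2 or more UMIs of the rule's cycle genes, and the dotted line marks equal sums. At P30, 38 of 50 red points lie above the line, and at P7, 2 of 5 red points lie far to the right.

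Across all genes, dividing and 0-UMI macrophages were compared on UMIs summed per class and scaled to counts per 1000000 UMIs of the class (CPM). The classes held 190575 and 339128 UMIs at P30 and 14257 and 88633 at P7. A gene was measured with at least 20 CPM in the higher class and 10 UMIs over both, and was called higher or lower when it was at least 2-fold apart with an interval that excluded equal levels. At P30, 446 of 5747 measured genes were higher (7.76%) and 255 lower (4.44%), around a median log2 ratio of 0.02. Of 172 measured genes on the cycle lists, 138 were higher and 1 lower, a count that the rule itself favours and that is given as a description. The level limit favours it too, because genes nearly absent from 1 class are measured only through the other. Of 183 measured genes on the macrophage lists, 0 were higher and 34 lower. With only the 65 0-UMI barcodes of at least 2205.25 UMIs as comparison, 382 were higher and 211 lower.

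**Figure D3:**
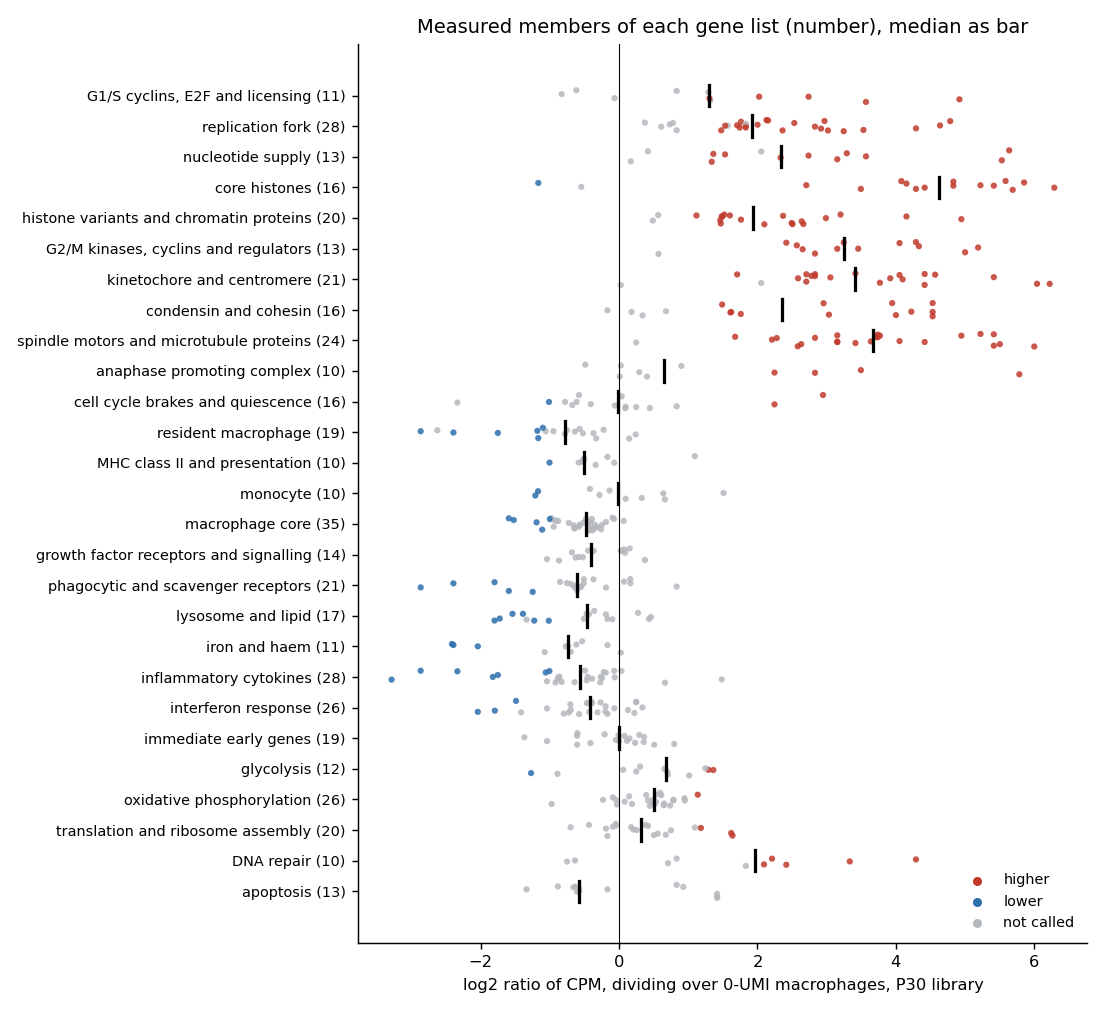
log2 ratio of CPM, dividing over 0-UMI macrophages in the P30 library, for each measured gene of the lists (number in brackets); red points were called higher, blue lower and grey neither, black bars are medians, and genes with no UMI in 1 class stand at the bound set by 3 counts. Bars of the S phase and mitotic lists lie between 1.31 and 4.62, except the anaphase promoting complex list at 0.65. The bar of the resident macrophage list lies at -0.78.

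Licensing and entry into S phase was mixed at P30, with 5 of 11 measured genes higher and a median of 1.31. Ccne2, the cyclin that fires S phase, was at 105 CPM against 0 (at least 3.57 higher on the log2 scale). The hemimethylation reader Uhrf1 was at 89.2 against 2.95 CPM (log2 ratio 4.92) and the licensing inhibitor Gmnn at 157 against 23.6 (2.74). Ccnd1, the cyclin that relays growth factor signals to Cdk4, was at 462 against 484 CPM (-0.07), and Ccnd2 at 157 against 242 (-0.62), neither called. Cdk4 itself was higher, 131 against 53.1 CPM (1.31). Ccnd1 was thus found in 30 of 50 dividing barcodes without being called, and Ccne2 in 14 of 50 but in no 0-UMI barcode.

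The replication fork list was higher in 21 of 28 measured genes, with none lower and a median of 1.92. The sliding clamp Pcna had 0 to 10 UMIs per P30 dividing barcode (median 1), and 34 of 50 had any. It stood at 640 against 189 CPM (1.76). DNA ligase Lig1 was at 430 against 53.1 CPM (3.02), the checkpoint adaptor Clspn at 163 against 5.90 (4.79), and the primase subunit Prim1 at 178 against 23.6 (2.92). Of the helicase subunits Mcm2 to Mcm7, all but Mcm5 were called higher, from 1.48 for Mcm3 to 2.53 for Mcm2, and Mcm5 was at 1.57 with an interval that reached equal levels. Nucleotide supply followed the fork, with 10 of 13 measured genes higher (median 2.33). Thymidine kinase Tk1 was at 147 against 2.95 CPM (5.64), the ribonucleotide reductase subunit Rrm2 at 136 against 2.95 (5.53), and thymidylate synthase Tyms at 105 against 0 (at least 3.57).

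Core histones showed some of the largest ratios. At P30, 14 of 16 measured genes were higher and 1 lower, with a median of 4.62. Hist1h2ap had 0 to 9 UMIs in the dividing barcodes (median 0, 20 of 50 with any) and at most 1 in a 0-UMI barcode, 341 against 5.90 CPM (5.85). The lower one, Hist1h2bc, was at 47.2 against 106 CPM (-1.17). Hist1 genes are near-identical copies, most of their messages lack the poly(A) tail that Drop-seq captures, and counting could split reads between copies, so single members are uncertain. Summed, the 42 listed histone genes were at 2477 against 265 CPM.

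The list of proteins that package and open chromatin, which also holds the tubulin-binding protein Stmn1, was higher in 18 of 20 measured genes (median 1.93). Hmgb2, a DNA bending protein of cycling cells, had 0 to 32 UMIs per dividing barcode (median 8.0, 46 of 50 with any) against a median of 0 and at most 7 in 0-UMI macrophages. It was at 2671 against 422 CPM (2.66). Stmn1, which frees tubulin from microtubules (chr4:134468320-134473843, plus strand, GENCODE M21 on GRCm38), had 0 to 19 UMIs (median 2.0) against 0 or 1 UMI in every 0-UMI macrophage. It was at 819 against 26.5 CPM (4.95). The histone variant H2afz was at 1270 against 374 CPM (1.76), and Ezh2, the methyltransferase of Polycomb, at 519 against 91.4 (2.51). Ptma, an abundant histone H1 chaperone, was at 4544 against 2094 CPM (1.12).

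Many genes of entry into mitosis had no UMI in 0-UMI macrophages. Of the G2/M kinases, cyclins and regulators, 12 of 13 measured were higher (median 3.25). Genes nearly absent from 0-UMI macrophages were measured only through dividing barcodes, which favours such a share. Of the 27 listed symbols, 26 were present in the data. No UMI in any of the 157 0-UMI barcodes was found for 18 of the 27, which include the symbol not present. The mitotic kinase Cdk1 was at 147 CPM (19 of 50 barcodes) against 0, at least 4.05 higher. Its cyclin Ccnb2 was at 215 against 5.90 CPM (5.19), the Aurora kinase Aurkb at 94.5 against 2.95 (5.0), and the kinase Pbk at 178 against 0 (at least 4.33). The checkpoint protein Bub3 was at 78.7 against 53.1 CPM (0.57) and was not called.

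Kinetochore and chromosome structure genes followed. Among kinetochore and centromere genes 19 of 21 measured were higher (median 3.42), led by the outer kinetochore protein Ndc80 at 220 against 2.95 CPM (6.22), which was seen in 25 of 50 dividing barcodes. The centromere histone Cenpa was at 142 against 20.6 CPM (2.78), and the passenger protein Incenp at 404 against 23.6 (4.1). Condensins and cohesins were higher in 12 of 16 measured genes (median 2.36). Condensin's Smc4 had 0 to 18 UMIs per dividing barcode (median 4.5, 42 of 50 with any) and stood at 1532 against 198 CPM (2.96), and its partner Smc2 at 614 against 26.5 (4.53). The cohesin subunit Smc3 was at 373 against 233 CPM (0.68) and was not called, while Smc1a was higher (509 against 150 CPM, 1.76).

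Spindle genes were higher in 23 of 24 measured (median 3.67). Nusap1, which bundles spindle microtubules (chr2:119618298-119651244, plus strand), was found in 29 of 50 dividing barcodes with up to 7 UMIs and in none of 157 0-UMI barcodes, where 1.48% of matrix-rich barcodes had it. It stood at 378 CPM against 0 (at least 5.42). The cytokinesis motor Kif23 was found in 26 barcodes with up to 10 UMIs (331 CPM against 0, at least 5.22), and the spindle motor Kif15 in 27 (273 against 0, at least 4.95). The tubulins Tubb5 and Tuba1b were expressed in both classes and stood at 1663 against 268 CPM (2.63) and 1359 against 227 (2.58). Tubb6, at 168 against 142 CPM (0.25), was not called. Of the anaphase promoting complex and its partners, 4 of 10 measured were higher, the activators Cdc20 (99.7 CPM against 0, at least 3.49) and Fzr1, the inhibitor Fbxo5 and the ubiquitin carrier Ube2c (163 against 2.95 CPM, 5.79). The core subunits Anapc5, Anapc11, Anapc13, Cdc16, Cdc26 and Cdc27 ranged from -0.49 to 0.90 and were not called.

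Brakes of the cycle showed no common direction, with 2 of 16 measured higher, 1 lower and a median of -0.01 whose sign changed with the settings. The inhibitor of Cdk4 and Cdk6, Cdkn2c, was at 68.2 against 8.85 CPM (2.95), and the pocket protein Rbl1 at 42.0 against 8.85 (2.25), in 9 and 6 barcodes. Zfp36l1, a protein that destabilises messenger RNAs, was lower, 582 against 1177 CPM (-1.01). The damage and stress responsive inhibitor Cdkn1a was at 834 against 870 CPM (-0.06), in 40 of 50 dividing barcodes.

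Lists of other functions can be read against the 7.76% of all measured genes that were called higher. Among DNA repair genes 5 of 10 measured were higher (median 1.96), among them the helicase Blm. The nuclear transport GTPase Ran (955 against 307 CPM, 1.64), its binding partner Ranbp1 (1.62) and the nucleolar protein Nop56 (1.18) were 3 of 20 measured translation genes. Of 26 nuclear oxidative phosphorylation genes, 1 was called higher, a share below that of all genes. It was the complex I subunit Ndufb8 (220 against 100 CPM, 1.14). Of the 26, 21 lay above 0, with a median of 0.50. Of 12 measured glycolysis genes 10 lay above 0, with a median of 0.67. The enzymes Pgk1 (1.36) and Gapdh (1.29) were called higher and Aldoa (-1.27) lower. Immediate early genes, which cell isolation is known to induce, had 0 of 19 called and a median of -0.00. Apoptosis genes had 0 of 13 called at a median of -0.58.

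Macrophage genes were a smaller part of the dividing macrophages' RNA at P30. Counts of lower genes in these lists can be read against the 4.44% of all measured genes that were called lower. The 36 macrophage core genes, which exclude the rule genes, summed to 19714 against 31307 CPM, with 5 of 35 measured lower, 0 higher and a median of -0.48. Per barcode the list gave 99.9 to 422 UMIs per 10000 in dividing macrophages (median 199) and 98.8 to 735 in 0-UMI macrophages (median 319), so the ranges overlapped widely. In UMIs rather than shares the order was the reverse, with a median of 74.5 core UMIs in a dividing barcode (23 to 253) and 60 in a 0-UMI barcode (16 to 225). The share of core genes over pooled barcodes was 313 per 10000 at 0 rule UMIs, 297 at 1, 252 at 2 and 178 at 20 or more. Against the deeper 0-UMI barcodes the median log2 ratio was -0.51. The rule's preference for deep barcodes, a larger RNA content of dividing cells and a deeper capture of their droplets cannot be told apart.

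**Figure D4:**
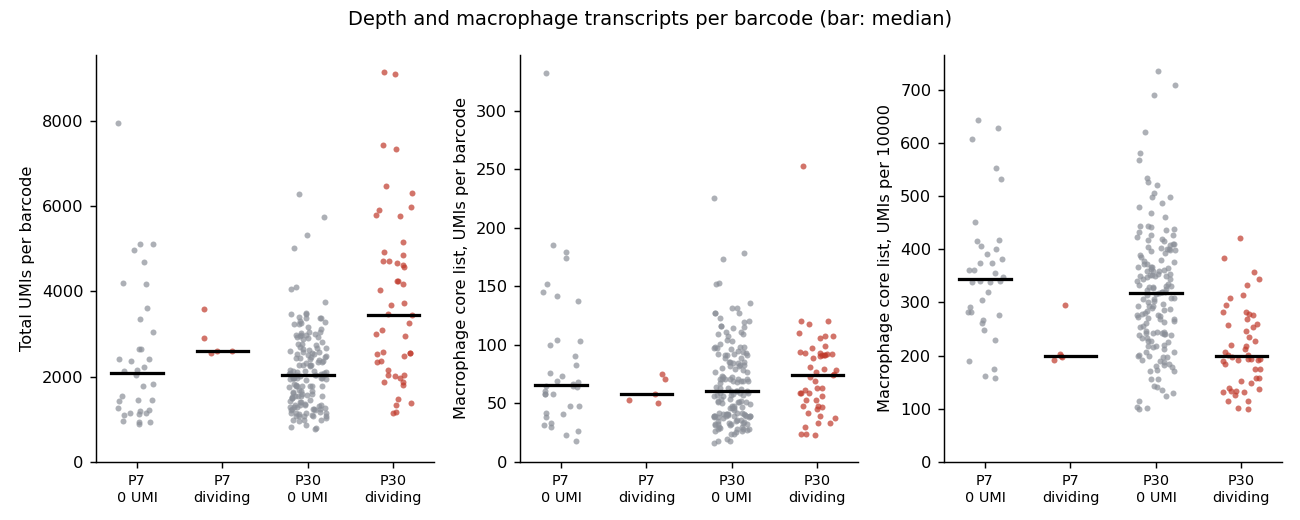
Total UMIs (left), UMIs of 36 macrophage core genes (middle) and the same genes per 10000 UMIs (right) in each 0-UMI (grey) and dividing (red) macrophage barcode at P7 and P30, with medians as bars. At P30 dividing barcodes have the higher median in total UMIs (3451 against 2035) and in core UMIs (74.5 against 60) and the lower one per 10000 (199 against 319). The limit of at least 2 cycle UMIs favours deeper barcodes.

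Apoe, the lipid carrier and the most abundant core gene, had 0 to 79 UMIs per dividing barcode (median 13.5) and 0 to 108 per 0-UMI barcode (median 18). It was at 4408 against 9530 CPM (-1.11), and it was also found in 94.9% of matrix-rich P30 barcodes. The part of free RNA in its counts was not tested. Ctsb, a lysosomal protease, was at 971 against 1943 CPM (-1.0), with 3 UMIs as the median of both classes. The engulfment receptor Mertk (42.0 against 127 CPM, -1.59), the protease Ctsl (-1.52) and the receptor Gpr34 (-1.19) were lower on 4, 12 and 11 dividing barcodes. The chemokine receptor Cx3cr1 was at 871 against 1215 CPM (-0.48) and Aif1 at 819 against 861 (-0.07), neither called. The median UMIs of Cx3cr1 were 3 in dividing and 2 in 0-UMI barcodes.

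Genes of long-lived resident macrophages were lower in 6 of 19 measured, higher in 0, with a median of -0.78. The transcription factor Maf, which restrains self-renewal in macrophages, had 0 to 14 UMIs in dividing barcodes and 0 to 46 in 0-UMI barcodes (median 2 in both), 698 against 1583 CPM (-1.18). The haemoglobin scavenger receptor Cd163 was found in 6 of 50 dividing and 26 of 157 0-UMI barcodes (57.7 against 304 CPM, -2.40; thinned to 500 UMIs, 2.35% and 9.78%, and 0.107% of matrix-rich barcodes). The selenium carrier Sepp1 (1044 against 2241 CPM, -1.10), the transglutaminase F13a1 (273 against 613, -1.17) and the growth factor Igf1 (89.2 against 301, -1.75) were lower. Igf1 and Sepp1 were also found in 72.3% and 59.7% of matrix-rich barcodes. Timd4 rested on 1 dividing barcode. The mannose receptor Mrc1 (-0.57), the chemokine Pf4 (-0.52), Folr2 (-0.33) and Lyve1 (84.0 against 162 CPM, -0.95) were not called.

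Receptors for growth signals were not called apart. Of 14 measured genes of growth factor receptors and signalling, 0 were called and the median was -0.41. Csf2ra, a chain of the receptor for granulocyte macrophage colony stimulating factor, was at 257 against 245 CPM (0.07), and Myc at 26.2 against 23.6 (0.15). Csf1r, a gene of the rule, was at 483 against 593 CPM.

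Iron, lipid and inflammatory genes leaned the same way. Iron and haem genes were lower in 3 of 11 measured (median -0.74), namely Cd163, the haem oxygenase Hmox1 (10.5 against 56.0 CPM, -2.42) and the haem-induced factor Spic, on 6, 2 and 3 dividing barcodes. Lysosome and lipid genes were lower in 6 of 17 (median -0.47), among them the cholesterol exporter Abca1 (-1.54), the lipid droplet protein Plin2 (-1.73) and the galectin Lgals3 (-1.23). Monocyte genes showed no common direction, with 2 of 10 measured lower, 0 higher, 5 above 0 and 5 below. Their median was -0.02 and ran from -0.51 to 0.25 over the settings. The lower ones include Lyz2, the lysozyme of monocytes and macrophages. Lyz2 had a median of 7.5 UMIs (0 to 53) against 12 (0 to 90), 3133 against 7251 CPM (-1.21). Inflammatory cytokines were lower in 7 of 28 (median -0.57), with Il1b at 887 against 1784 CPM (-1.01) and Il1a at 73.5 against 153 (-1.06). The chemokine Ccl8 rested on 4 dividing and 19 0-UMI barcodes (26.2 against 257 CPM, -3.29) and Cxcl9 on 1 dividing barcode. Abundant chemokines were not called, with Cxcl2 at 6727 against 7988 CPM (-0.25), Ccl2 at 2571 against 2512 (0.03) and Ccl4 at 2351 against 2828 (-0.27).

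Outside the lists, the nuclear paraspeckle RNA Neat1 was among the genes farthest below. It was found in 12 of 50 dividing and 86 of 157 0-UMI barcodes, with at most 5 and 11 UMIs, 110 against 604 CPM (-2.46). Thinned to 500 UMIs, 6.28% and 23.3% of barcodes would hold it, and 4.49% of matrix-rich barcodes. The nuclear RNA Malat1 was at 14981 against 24071 CPM (-0.68), not called. The Schlafen family member Slfn5 (26.2 against 209 CPM, -3.00) and the phospholipase Pla2g7 (63.0 against 333, -2.40) were seen in 4 and 10 dividing barcodes against 43 and 58 of the 0-UMI barcodes.

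Dividing macrophages were found on both sides of the split by MHC class II, the molecules that present antigen to T cells. H2-Aa, H2-Ab1, H2-Eb1 and Cd74 summed to 0 to 483 UMIs per 10000 in P30 dividing barcodes (median 47.2) and 0 to 729 in 0-UMI barcodes (median 62.9). Above a limit of 50 per 10000 lay 25 of 50 dividing (50%, exact interval 35.5 to 64.5) and 82 of 157 0-UMI macrophages (52.2%, 44.1 to 60.3), a difference within counting error. Put the other way, 25 of 114 macrophages under the limit were dividing (21.9%, 14.7 to 30.6; thinned 12.7%) and 25 of 112 at or above it (22.3%, 15 to 31.2; thinned 12.3%). The limit cuts a range, and 27 of the 226 P30 macrophage barcodes lay between 25 and 100 per 10000. Of the MHC class II and presentation list, 1 of 10 measured genes was lower and 0 higher (median -0.51).

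Genes that mark macrophage subsets, picked here after their values were seen, were counted on each side of the limit. F13a1 was found in 10 of 25 dividing barcodes under 50 MHC class II UMIs per 10000 (52 UMIs) and in 0 of 25 at or above it, which by 3 counts limits barcodes with a UMI to 12% and says nothing of lower expression. In 0-UMI macrophages it was found in 36 of 75 and 13 of 82. Lyve1 was found in 4 of 25 and 0 of 25 dividing barcodes, and in 17 of 75 and 1 of 82 0-UMI barcodes. Ccr2, the receptor by which monocytes enter tissue, was found in 9 dividing barcodes, 3 under and 6 above the limit, with 26 and 23 UMIs. In 0-UMI macrophages it was found in 0 of 75 under and 19 of 82 above. Of the 26 UMIs under the limit, 16 came from 1 barcode. The monocyte gene Plac8 was at 0 in all 4 groups. Ly6c2 was found in 2 of 25 dividing barcodes under the limit, with 2 UMIs, and was at 0 in the other groups. S100a4 was found in 4 dividing barcodes under and 3 above the limit, and in 12 of 75 and 7 of 82 0-UMI barcodes. In the same order, Itgal was found in 2, 4, 3 and 2 barcodes, and Ms4a4c in 1, 6, 4 and 14.

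The lists were also compared inside each subset. The 4 given here had medians of the same sign in both, and the medians of the other lists inside the subsets are not reported here. The spindle list had a median of 3.01 under and 2.83 at or above the limit, and the replication fork list 2.0 and 2.16. The resident list had medians of -0.75 and -1.19, and the core list -0.57 and -0.52. Maf was at -1.17 and -1.14 and Lyz2 at -1.01 and -1.48. Pf4 stood at 3150 against 3593 CPM under the limit (-0.19) and at 543 against 1591 above it (-1.55). Whether these differences between the subsets exceed chance was not tested.

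**Figure D5:**
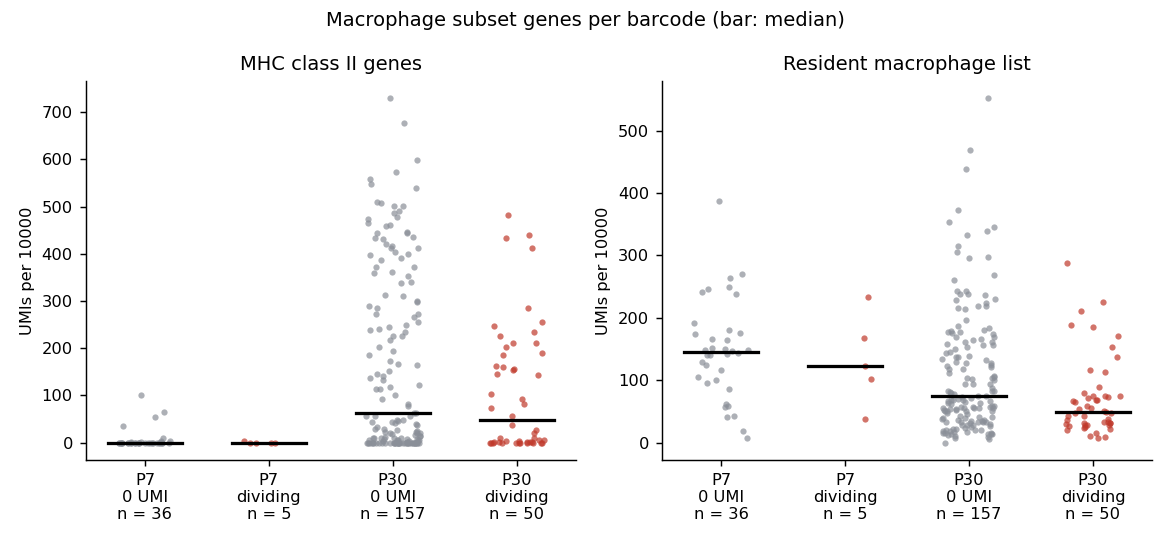
MHC class II genes (left) and resident macrophage list (right), in UMIs per 10000, for each 0-UMI (grey) and dividing (red) macrophage barcode of the P7 and P30 libraries, with medians as bars. At P30 the MHC class II medians are 62.9 and 47.2 and the resident medians 75.3 and 49.8, with overlapping ranges.

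Markers of other cell types were summed in both P30 classes. Endothelial markers summed to 63.0 CPM in dividing and 70.8 in 0-UMI macrophages, mural markers to 10.5 and 35.4 and cardiomyocyte markers to 15.7 and 11.8. T and NK cell markers summed to 26.2 and 64.9 CPM, B cell markers to 73.5 and 76.7 and neutrophil markers to 10.5 and 14.7. Dendritic cell markers summed to 226 and 307 CPM, with Flt3 and Cd209a at 0 in both classes. Erythroid markers summed to 635 and 914 CPM, with 0 of 4 measured called. Interstitial cell markers outside the rule were the highest of these sums and came to 3112 and 3202 CPM, with 1 of 9 measured lower. Interstitial markers per barcode ran from 0 to 112 per 10000 in dividing and 0 to 102 in 0-UMI macrophages. Their part in any result was not tested.

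At P7, 63 of 1983 measured genes were higher in the 5 dividing barcodes (3.18%) and 51 lower (2.57%), around a median of 0.04. Of 41 measured cycle genes, 27 were higher and none lower, a count that the rule and the level limit favour. Core histones were higher in 11 of 12 measured genes. Hist1h2ap had 14, 4, 0, 0 and 0 UMIs in the 5 barcodes and at most 1 in any of 36 0-UMI barcodes, 1263 against 22.6 CPM (5.81). Stmn1 had 4, 7, 0, 0 and 0 UMIs, 772 against 33.8 CPM (4.51), and Pcna 3, 7, 0, 0 and 0. Hmgb2 was present in all 5, with 8, 8, 3, 1 and 3 UMIs. Nearly all histone, Stmn1 and Pcna UMIs thus came from the first and second barcodes.

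With the haemoglobin-rich P7 barcode included, 33 genes were higher and 6 lower at both ages, of 1964 measured at both. The 33 hold 11 histone H2A genes, H2afx, the chromatin proteins Hmgb1, Hmgb2, Hmgn2, Dek, Ptma, Anp32b and Cbx3, the fork genes Pcna and Lig1, and Smc4, Incenp, Stmn1, Tubb5, Tuba1b and Ranbp1. The 6 are Il1b, Lyz2, Lgals3, Plin2, the elastase Mmp12 and the lectin Clec4n. Il1b, Lgals3 and Mmp12 had no UMI in the P7 dividing barcodes. Their ratios there are bounds of at least 1.42, 1.33 and 1.21 lower on the log2 scale. With a limit of 5 macrophage UMIs the bounds fell short of 2-fold for Lgals3 and Mmp12. Without barcodes that hold an undetermined base they fell short for all 3. Lyz2 had 9, 1, 0, 4 and 4 UMIs in the P7 dividing barcodes, with 0 in the haemoglobin-rich one. Leaving that barcode out moves the ratios of Lyz2 and of these 3 genes toward equal levels. Which of the 6 genes stay at least 2-fold lower without it was not tested.

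Other P7 values were thin. The macrophage core list was lower in 2 of 34 measured, where 2.57% of all measured genes were lower. Its median was -0.69 (-0.46 without the third barcode). Per barcode the list gave 192 to 294 UMIs per 10000 against a median of 344 in 0-UMI macrophages. Resident genes had 0 of 13 called and summed to 13748 against 13054 CPM. Their median was 0.05, and 0.34 without the third barcode. Mrc1 had 19, 12, 2, 4 and 4 UMIs and Pf4 17, 36, 3, 9 and 4. The 4 measured erythroid genes were higher, 72175 against 3915 CPM over the list. The list's median was 4.27, and -0.21 without the third barcode. Without that barcode 69 genes were higher and 40 lower. MHC class II was nearly absent at P7, with 0 of 5 dividing (exact interval 0 to 52.2%) and 3 of 36 0-UMI macrophages at or above 50 per 10000.

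Between the ages, 61 of 3318 measured genes were higher in P30 than in P7 dividing macrophages (1.84%) and 116 lower (3.5%), around a median of -0.49. Without the haemoglobin-rich P7 barcode 44 were higher and 136 lower. The median was also below 0 in 0-UMI macrophages (-0.14 over 5137 genes, 211 or 4.11% higher and 436 or 8.49% lower). 1 UMI in the P7 class stood for 70.1 CPM, so low genes could not be seen there. With scaling by the median ratio of well counted genes, a shift of -0.33 on the log2 scale that it removes, the split was 129 higher and 72 lower.

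MHC class II genes led the genes higher at P30. H2-Ab1 was at 2865 CPM against 0 (at least 3.77 on the log2 scale), H2-Eb1 at 2860 against 0 (at least 3.76) and Cd74 at 3510 against 70.1 (5.65). In 0-UMI macrophages H2-Ab1 and Cd74 were 4.92 and 3.23 higher at P30. The nuclear RNA Malat1 was 2.31 higher in dividing and 2.27 in 0-UMI macrophages, and the interferon responsive Ifi27l2a 3.31 and 3.32. Il1b (at least 2.08) and the anti-apoptotic Bcl2a1d (3.92) were also higher. What is particular to dividing barcodes in these differences was not tested.

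Core histones were 12 of the 116 genes lower at P30. Of 15 measured core histones 12 were lower at P30 and 0 higher, with a median of -2.28 (-2.48 without the haemoglobin-rich barcode). Hist1h2ad was at 99.7 against 982 CPM (-3.30) and Hist1h2ap at 341 against 1263, while the P7 values came from 2 barcodes. Resident macrophage genes were lower in 5 of 15 measured (median -1.02, or -1.30 without that barcode), summing to 6774 against 13748 CPM. The kinase Nek7 (-3.74), the repair enzyme Parp1 (-3.09) and the receptor Ifngr1 (-2.60) were lower on 7, 7 and 10 P7 UMIs. Replication fork genes summed to 3930 and 3928 CPM with 0 of 24 called, and spindle genes to 7855 and 5120 with 0 of 24 called.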

How the data were processed

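Drop-seq libraries of P7 and P30 mouse heart valves were used, 1 per age. The deposited tables hold UMI counts per gene and barcode, made by the authors as whole numbers without normalization, per the file headers and values. The submitters' processing notes name Bowtie2 2.2.7 and mm10 without a role. Which counting program and gene annotation were used is not given in the sources used here. Every barcode had at least 500 detected genes. The deposited normalized tables were not used.

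Counts were summed per class and age with Python 3.11.15 (pandas 2.3.3, numpy 2.4.6, scipy 1.17.1). CPM have exact Poisson intervals, ratios exact conditional binomial intervals and shares Clopper-Pearson intervals, all at 95% and for counting error only. Genes with no UMI in 1 class were set at a floor of 3 counts and are given as bounds. Thinning to 500 UMIs used hypergeometric expectations, and motifs were searched as plain letters. Each list's called and most abundant members are named, and in each comparison the 12 genes per direction whose interval lay farthest from equal levels, without mitochondrial, ribosomal, haemoglobin, unnamed and rule genes, were eligible. Some members of the lists are not reported here by name. Members, lists and rules were chosen with earlier results of these data known. The scripts were tested on simulated data. Alternatives changed the 3 limits of the rule, the barcodes kept, the weighting, the scaling, the level filter and the depth of the comparison.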

Additional observations from a re-analysis of the deposited data

Results flagged for a closer look

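Il1a, the gene of interleukin 1 alpha, differed in direction between the ages. Its log2 ratio of dividing over 0-UMI macrophages was -1.062 at P30, on 14 against 52 UMIs, and 3.221 at P7, on 6 against 4 UMIs. At P7 it was found in 2 of 5 dividing barcodes, with 5 of its 6 UMIs in 1 of them, and in 3 of 36 0-UMI barcodes. The difference between the ages was not tested.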

How the results depend on the processing

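No paired analysis was possible because each age has 1 library. Of 80 values of shares, phases and gene counts under alternatives, 70 stayed within their limits. With at least 5 cycle UMIs the share of dividing macrophages was 16.81% at P30 and 4.255% at P7, against 22.12% and 10.64%, and thinned to 500 UMIs the shares were 3.273% at P7 and 12.51% at P30. With at least 5 cycle UMIs, 0% of the 2 P7 barcodes left had more G2/M than S UMIs. Without the level filter 170 genes were higher in P7 dividing macrophages, and 207 were lower between the ages. Median-of-ratios scaling gave 129 higher and 72 lower genes between the ages, and at P7 53 higher and 66 lower against 63 and 51, a shift of 0.10 on the log2 scale. Under 50 MHC class II UMIs per 10000, 247 genes were higher and 154 lower at P30, with fewer barcodes and 3927 genes measured. The limit of 5 cycle UMIs, the MHC class II subsets and the run without the haemoglobin-rich barcode were chosen after seeing the data. Of 1464 values of single genes and lists, 1357 stayed within their limits and 107 moved. A reversal was scored only for named genes, which were picked for intervals far from equal levels, and none reversed. List medians were not scored for sign, and some changed it. The apoptosis list at P7 ran from -3.01 to 1.41, and the monocyte list at P7 from -0.77 to 1.05. The cause of these changes was not tested. Counts of 1 to 10 UMIs limit most P7 values.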
